A study of Mus musculus with 9 samples.

Results

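Leukocyte adhesion molecules and integrins were examined as 9 named genes of the 55450 in the annotation, taken by their symbols: the endothelial ligands Icam1 and Vcam1, the vascular selectins Selp and Sele, the integrin alpha subunits Itgal, Itga4 and Itgam and the integrin beta subunits Itgb2 and Itgb7. RNA of manually dissected nigral tissue from saline-perfused male mice was sequenced in 9 libraries, 3 in each group, and collected 5 weeks after lentiviral transduction of the substantia nigra on both sides. The vectors held a FLEX cassette, which Cre must turn into the reading direction, behind the Ef1a promoter. In the group CTR, CX3CR1-CreERT2 mice received a vector for destabilized GFP by the study's text, while the labels read GFP. In the group CX3, mice of the same Cre line received a Synuclein-expressing vector, and in the group DAT the same vector was given to DAT-Cre mice. Cre is under the Cx3cr1 locus, active in microglia and other myeloid cells, in the first line, and under the dopamine transporter locus in the second. Tamoxifen was given on 4 consecutive days to CX3CR1-CreERT2 mice, which leaves the DAT group without it. By this description, DAT and CTR differ in Cre line, targeted cells, tamoxifen and insert together, and these cannot be told apart. The study's text gives an age of 8 weeks at transduction in its results and of 9 weeks for the purchased mice in its methods. How many animals gave a library is not stated, so p-values measure the spread between these libraries, which may be technical.

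Leukocytes leave the blood in steps. Selectins on endothelium (Selp, Sele) let the cells roll, chemokine signals then switch integrins to their binding form, and integrins grip endothelial ligands of the immunoglobulin family. Itgal and Itgam each pair with Itgb2 and bind Icam1, whereas Itga4 pairs with Itgb1 to bind Vcam1 or with Itgb7 to bind Madcam1. In the brain, resident microglia also carry Itgam and Itgb2, and Vcam1 and Icam1 are induced on vessels and glia by inflammatory cytokines.

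Promoters are shown for the tested members with an entry in the sequence table, so that the letters before each start can be read beside the values. Each of these was called lower in DAT than in CTR, while Icam1 and Itga4 were not called in CX3 against CTR. The RefSeq table (GRCm38.p6) had an entry for 6 of the 9 genes, and Vcam1, Itgal and Itgb2 were not among them. The lines give the 250 bases before the start, 5′ to 3′ on the strand of the gene, for Icam1 (chr9:21015690-21015939, plus strand), Itga4 (chr2:79255176-79255425, plus strand), Itgb7 (chr15:102231936-102232185, minus strand) and Itgam (chr7:128062390-128062639, plus strand). Capitals mark 2 motifs searched on both strands, GGGNNNNNCC, a loose form of the letters that NF-kappaB binds, and GAGGAA, letters found in sites of the myeloid ETS factor Spi1.
Icam1: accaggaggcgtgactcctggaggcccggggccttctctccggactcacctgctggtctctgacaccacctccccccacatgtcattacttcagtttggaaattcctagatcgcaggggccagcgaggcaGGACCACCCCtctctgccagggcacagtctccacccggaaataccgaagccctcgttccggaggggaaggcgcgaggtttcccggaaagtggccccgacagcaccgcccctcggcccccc
Itga4: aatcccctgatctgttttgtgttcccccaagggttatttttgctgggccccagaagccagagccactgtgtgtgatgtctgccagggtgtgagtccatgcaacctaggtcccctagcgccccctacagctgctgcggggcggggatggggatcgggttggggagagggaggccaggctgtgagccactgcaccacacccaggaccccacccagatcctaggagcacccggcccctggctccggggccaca
Itgb7: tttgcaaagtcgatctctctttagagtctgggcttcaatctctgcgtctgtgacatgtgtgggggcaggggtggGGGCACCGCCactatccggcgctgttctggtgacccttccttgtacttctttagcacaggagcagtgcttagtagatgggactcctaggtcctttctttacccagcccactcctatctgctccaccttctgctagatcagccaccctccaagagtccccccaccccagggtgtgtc
Itgam: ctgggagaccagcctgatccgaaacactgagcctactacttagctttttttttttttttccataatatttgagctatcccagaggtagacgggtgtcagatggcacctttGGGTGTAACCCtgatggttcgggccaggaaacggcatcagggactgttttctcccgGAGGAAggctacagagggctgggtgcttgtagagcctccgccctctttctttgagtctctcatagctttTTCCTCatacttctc
The letters GGGNNNNNCC were present in 5 of the 6 members' windows (Icam1, Itgam, Itgb7, Sele, Selp) and in 45.8% of the 32851 promoters of this length. Those of Itgam hold a pair of overlapping matches. GAGGAA was present in Itgam and Sele, against 23.3% of the promoters. The TATA box letters TATAAA, searched likewise, were present in Sele, against 12.4%. The pattern leaves out near matches, such as tggaaattcc in the Icam1 window, which stays in lower case. A match of letters describes the window and is not a binding site measured here.

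Reads counted on genes numbered 21592817 to 39475428 per library, and levels are given as CPM, the read count normalised to the TMM-scaled size of its library. A floor of 3 counts, for counting error alone, was 0.0779 to 0.151 CPM. CX3 replicate A had 19.0% unmapped reads against 13.8% as the lowest of its group. Reads outside annotated genes made up 4.15% to 4.31% in DAT, 6.39% to 7.73% in CX3 and 7.47% to 7.61% in CTR. Genes with at least 1 count numbered 35401 to 36463 in CTR, 31143 to 31777 in CX3 and 26475 to 28764 in DAT. DAT replicate A, with the most reads on genes of any library, had 28764. Markers of the dissected region were present in every group, with Th at 81.6 ± 2.16 CPM in CTR, 101 ± 2.50 in CX3 and 68.4 ± 0.501 in DAT (SD, n = 3 libraries, as for every ± given with CPM). Ttr, a defining gene of choroid plexus, which lies outside the nigra, had 20.0 ± 0.720 CPM in CTR, 1457 ± 56.2 in CX3 and 853 ± 97.7 in DAT. By the study's text, the Cx3cr1 locus drives Cre in CTR and CX3. Cx3cr1 had 102 ± 0.900 CPM in CTR, 44.6 ± 0.894 in CX3 and 83.4 ± 4.31 in DAT. The labels do not give the Cre line of CTR, which is known here from the study's text alone. If CTR and CX3 carry the same Cre allele, as that text says, Cx3cr1 nevertheless differed between them (log2 fold change -1.20 for CX3 against CTR, adjusted p = 2.84e-10), and DAT, from the other line, lay between them. The libraries labelled CTR thus differed in Cx3cr1 from the group said to share their line, and lay above the group of the other line. Whether they carry the Cre allele was not tested.

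The libraries of a group were not equally alike. The biological coefficient of variation was 1.78% within CTR, 4.66% within CX3 and 8.55% within DAT, while the fit shares 1 estimate of the spread over the groups (5.61%). In units where counting error alone gives 1, the median squared difference between a pair of CTR libraries was 1.44 to 1.53. The pairs with CX3 replicate A gave 2.79 and 3.31 against 1.63 for the other pair of CX3, and those with DAT replicate B 3.93 and 4.81 against 1.74 for the other pair of DAT, so that these libraries stood apart from their groups. Without DAT replicate B, 5 members were called lower in CX3 than in CTR, 7 lower in DAT than in CTR (log2 fold changes from -1.62 to -0.67) and 7 higher in CX3 than in DAT. Without CX3 replicate A, the numbers were 3, 7 and 6, and Itga4 gave -0.15 in place of -0.25 in CX3 against CTR (adjusted p = 0.272). Of all genes called, 49.0%, 51.0% and 49.5% were higher in the same comparisons without DAT replicate B. Without CX3 replicate A these shares were 45.2%, 50.6% and 49.0%. These are shares of the genes called, not of the genes tested, and the share of all tested genes called in each refit is not given. A refit also changes the spread shared by all genes, so a change in the number called need not be particular to the members. The transgene itself was not analysed here.

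Of the 9 genes, 7 passed the filter on low counts and were tested, and 2, Selp and Sele, did not. Differences were tested with edgeR's quasi-likelihood test over 20892 genes and called at a Benjamini-Hochberg adjusted p under 0.05. In DAT, 7 of the 7 tested members were lower than in CTR and 4 of these at least 2-fold, where 27.9% of the genes tested were called lower, 32% higher and 12% lower by at least 2-fold. In CX3, 4 members were lower than in CTR and 0 higher, where 16.5% of the genes were called lower and 14% higher. CX3 was higher than DAT in 6 members and lower in 0, where 27.6% of the genes were called higher and 31.3% lower, and 1 of the 6, Itgal, was at least 2-fold higher, against 11% of the genes. DAT against CTR and CX3 against CTR share the CTR libraries. The median log2 fold change of the 7 members was -0.29 for CX3 against CTR, -1.09 for DAT against CTR and 0.77 for CX3 against DAT, beside medians of -0.0033, -0.0038 and 0.010 over the genes tested. With every gene of at least 1 count kept, the medians over all genes were -0.13, -0.49 and 0.041. Fewer genes had a count in DAT than in the other groups. In bulk tissue, fewer cells of a type and less RNA per cell cannot be told apart.

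**Figure D1:**
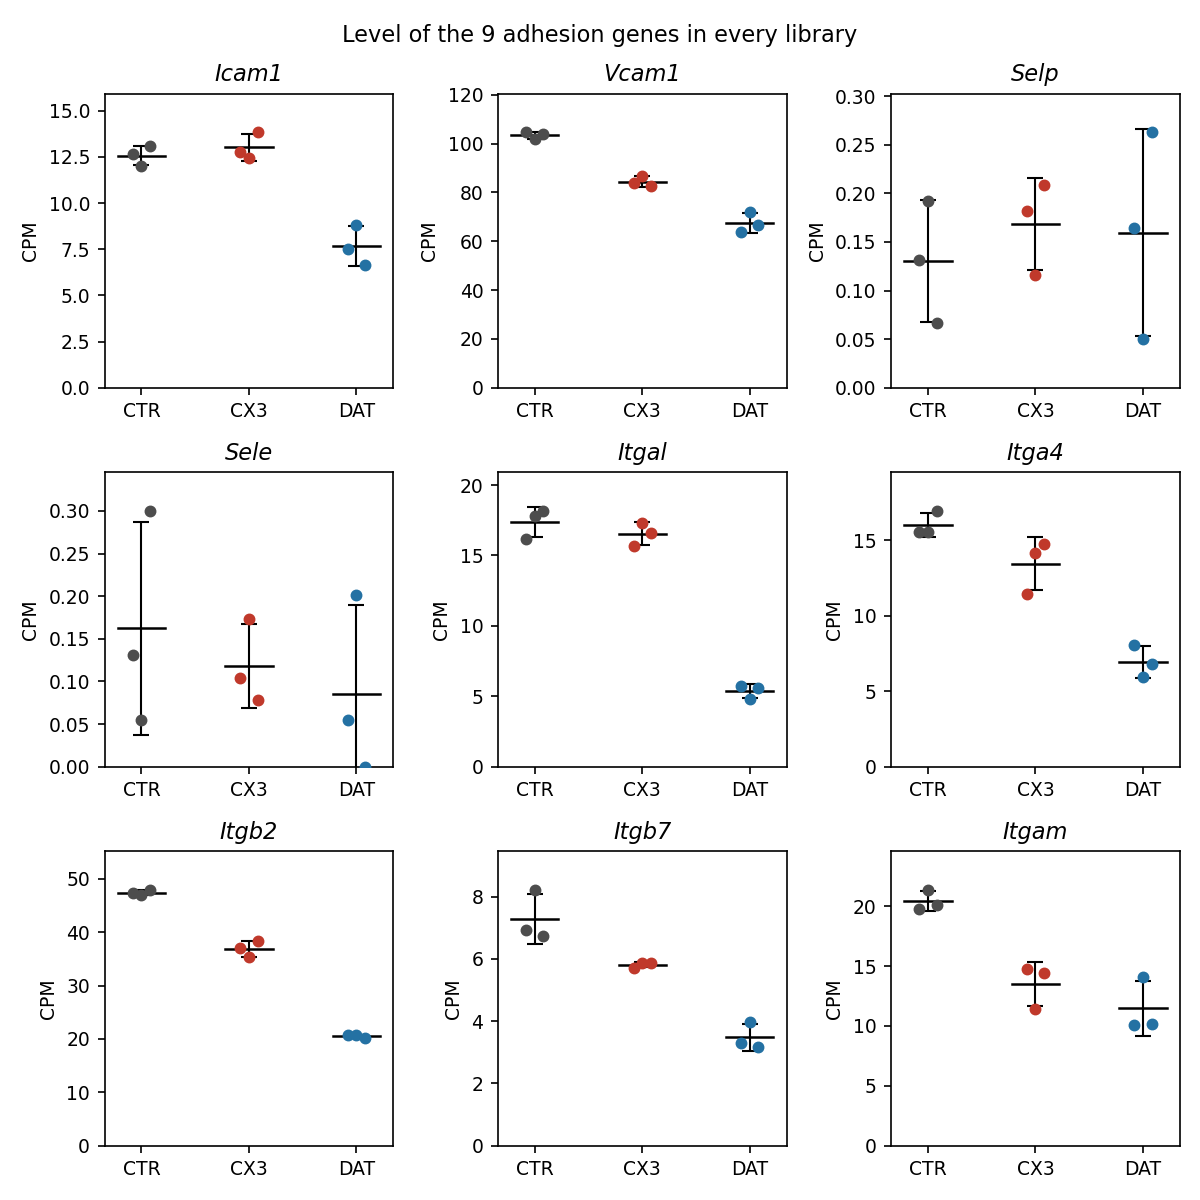
Level of each gene in CPM (y axis, linear, from 0) in the 3 libraries of CTR, CX3 and DAT (x axis). Points are libraries and bars the mean ± SD, cut at 0 for Sele. The DAT points lie below the CTR points for the 7 genes other than Selp and Sele, and for Icam1 and Itgal the CX3 points lie among those of CTR.

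Compared per kilobase of exon not shared with another gene, the members differed widely in level. In CTR, Itgb2 had 15.5 ± 0.165 CPM per kilobase, Itgam 12.98 ± 0.533 and Vcam1 11.8 ± 0.163. Icam1 followed with 3.27 ± 0.139, Itgal with 2.65 ± 0.163, Itgb7 with 2.63 ± 0.290 and Itga4 with 1.25 ± 0.0625. Itgal and Itgb7 differed by less than their SD. The selectins had 0.0343 ± 0.0166 CPM per kilobase for Selp and 0.0557 ± 0.0431 for Sele, and their SDs overlap. In DAT the order was Vcam1 (7.66 ± 0.469), Itgam (7.29 ± 1.46), Itgb2 (6.72 ± 0.0896), Icam1 (1.99 ± 0.279), Itgb7 (1.25 ± 0.158), Itgal (0.817 ± 0.0719) and Itga4 (0.539 ± 0.0821), with Itgam within its SD of Vcam1 and of Itgb2. The level of Itgam per kilobase rests on 1574 of its exon bases, since 68.7% are shared with the same-strand gene model Gm49368 and reads in the shared bases are counted on neither gene.

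Icam1 (ENSMUSG00000037405.8, chromosome 9 from 21015985 to 21028817, GRCm38 with GENCODE M21, as for every gene given) encodes the intercellular adhesion molecule that Itgb2 integrins bind. It had 12.6, 12.004 and 13.1 CPM in the CTR libraries, 12.7, 12.4 and 13.9 in CX3 and 7.51, 8.80 and 6.67 in DAT. The CX3 and CTR libraries overlapped, and the DAT libraries lay below both. Icam1 was 1.65-fold lower in DAT than in CTR (log2 fold change -0.72 ± 0.094 SE, adjusted p = 1.33e-05, edgeR) and 1.71-fold higher in CX3 than in DAT (0.77 ± 0.092, adjusted p = 5.74e-06), while CX3 against CTR gave 0.05 ± 0.084 (adjusted p = 0.680). An antisense model, Gm47079, covers 11.7% of its exon bases, and the deposited counts do not separate the strands.

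Vcam1 (ENSMUSG00000027962.14, chromosome 3 from 116109949 to 116129688), the vascular cell adhesion molecule that Itga4 integrins bind, was the member with the highest CPM. Its libraries read 105, 102 and 104 CPM in CTR, 83.9, 86.9 and 82.6 in CX3 and 63.8, 72.0 and 66.6 in DAT, so that the 3 groups were in separate ranges, highest in CTR and lowest in DAT. The log2 fold change was -0.29 ± 0.049 for CX3 against CTR (adjusted p = 4.68e-04), -0.62 ± 0.050 for DAT against CTR (adjusted p = 1.11e-07) and 0.33 ± 0.050 for CX3 against DAT (adjusted p = 6.48e-05).

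The selectins Selp (ENSMUSG00000026580.16, chromosome 1 from 164115264 to 164150026), which endothelium and platelets store and release to the surface, and Sele (ENSMUSG00000026582.6, chromosome 1 from 164048234 to 164057677), which activated endothelium makes, were near the floor. Selp had 4, 7 and 2 counts in CTR, 7, 4 and 8 in CX3 and 6, 1 and 6 in DAT. Sele had 4, 2 and 9 counts in CTR, 4, 6 and 3 in CX3 and 2, 4 and 0 in DAT. The groups overlapped for both genes. Summed over a group, Selp had 0.134 CPM in CTR (95% exact Poisson interval 0.0715 to 0.230, counting error alone), 0.170 in CX3 (0.103 to 0.266) and 0.164 in DAT (0.0875 to 0.281). The summed level of Sele was 0.155 CPM in CTR (0.0867 to 0.255), 0.117 in CX3 (0.0621 to 0.199) and 0.0758 in DAT (0.0278 to 0.165). A difference between groups was not detectable at this depth for either selectin, and 14.1% of the exon bases of Selp lie under opposite-strand models.

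The summed level of endothelial markers was higher in CX3 and DAT than in CTR, while Icam1 was lower in DAT and Vcam1 in both. Of 10 endothelial markers, 9 were higher and 1 lower in CX3 than in CTR, and 6 were higher and 3 lower in DAT. The sum was 290 to 298 CPM in CTR, 391 to 397 in CX3 and 382 to 387 in DAT, with 0 of the 10 at 0 counts throughout. The defining gene Cldn5 had 32.7 ± 0.772 CPM in CTR, 75.1 ± 5.19 in CX3 and 84.3 ± 10.3 in DAT. Per unit of the endothelial sum (each gene per kilobase), Vcam1 was 0.123 ± 0.00342 in CTR, 0.0727 ± 0.00322 in CX3 and 0.0647 ± 0.00164 in DAT, and Icam1 0.0342 ± 0.00198, 0.0256 ± 0.00178 and 0.0168 ± 0.00133 (SD, n = 3, no test). Both ratios were lower in every CX3 and DAT library than in every CTR library. The sum per kilobase rested largely on Cldn5 and Ly6c1, which differed in opposite directions. Cldn5 had 23.1 ± 0.545, 53.0 ± 3.67 and 59.5 ± 7.29 CPM per kilobase in CTR, CX3 and DAT. Ly6c1 had 43.3 ± 0.572, 37.6 ± 1.06 and 20.6 ± 1.86. The ratios thus depend on the markers summed, and ratios without Cldn5 were not computed. Astrocyte markers, of a cell type that can carry both ligands, were lower in CX3 for 5 of 5 genes and in DAT for 3 of 5, with summed levels of 5185 to 5199 CPM in CTR, 3058 to 3286 in CX3 and 3163 to 3439 in DAT, and their part in the result was not tested.

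Itgal (ENSMUSG00000030830.18, chromosome 7 from 127296260 to 127335138), the alpha subunit carried mainly by lymphocytes and other blood leukocytes, had the largest difference of the members. It had 16.2, 17.8 and 18.2 CPM in CTR, 15.7, 17.3 and 16.6 in CX3 and 5.70, 4.83 and 5.57 in DAT. CX3 and CTR overlapped, and each DAT library was below every library of the other groups. The level in DAT was 3.20-fold below CTR (log2 fold change -1.68 ± 0.085, adjusted p = 9.38e-10, edgeR) and CX3 was 3.05-fold above DAT (1.61 ± 0.085, adjusted p = 1.41e-09). CX3 against CTR gave -0.07 ± 0.070 (adjusted p = 0.478).

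Itga4 (ENSMUSG00000027009.18, chromosome 2 from 79255426 to 79333123), the alpha subunit of the Vcam1 receptor, had 15.6, 15.5 and 16.9 CPM in CTR, 11.5, 14.2 and 14.7 in CX3 and 8.03, 5.93 and 6.80 in DAT. The 3 groups did not overlap. It was 2.27-fold lower in DAT than in CTR (log2 fold change -1.18 ± 0.11, adjusted p = 7.32e-07) and 1.90-fold higher in CX3 than in DAT (0.93 ± 0.12, adjusted p = 8.49e-06). The difference of -0.25 ± 0.10 between CX3 and CTR did not pass (adjusted p = 0.0769), and it passed without DAT replicate B (adjusted p = 0.0172) or DAT replicate A (0.0470), with the CX3 and CTR libraries alone (0.0183) and in the counts of the forward strand (0.0255). Cerkl, on the opposite strand, covers 8.04% of the exon bases of Itga4.

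Itgam (ENSMUSG00000030786.18, chromosome 7 from 128062640 to 128118491), the alpha subunit of microglia and other myeloid cells, had 19.8, 21.4 and 20.1 CPM in CTR, 14.7, 11.4 and 14.4 in CX3 and 10.1, 14.1 and 10.2 in DAT. CX3 and DAT overlapped, and both were below CTR. The log2 fold change was -0.59 ± 0.11 for CX3 against CTR (adjusted p = 0.00116) and -0.86 ± 0.12 for DAT against CTR (adjusted p = 2.64e-05). Against DAT, CX3 differed by 0.26 ± 0.12 (adjusted p = 0.0821), by 0.43 without DAT replicate B (adjusted p = 4.78e-04) and by 0.36 without CX3 replicate B (adjusted p = 0.0204), and passed with genes of at least 1 count kept (0.00473), with library size alone in place of TMM (0.00523) and in the counts of the reverse strand (0.00753). It was the tested member for which CX3 and DAT were not told apart.

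Itgb2 (ENSMUSG00000000290.13, chromosome 10 from 77530252 to 77565708), the beta subunit that leukocytes share and without which Itgal and Itgam do not reach the surface, had 47.3, 46.9 and 47.9 CPM in CTR, 37.0, 35.4 and 38.3 in CX3 and 20.6, 20.7 and 20.2 in DAT. The groups lay in 3 separate ranges with little spread inside each. The log2 fold change was -0.36 ± 0.047 for CX3 against CTR (adjusted p = 6.22e-05), -1.21 ± 0.051 for DAT against CTR (adjusted p = 1.63e-10) and 0.85 ± 0.052 for CX3 against DAT (adjusted p = 5.98e-09).

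Itgb7 (ENSMUSG00000001281.10, chromosome 15 from 102215995 to 102231944), the beta subunit of lymphocytes that home to mucosa, was the lowest of the tested members in CPM. Its values were 6.93, 8.21 and 6.73 CPM in CTR, 5.71, 5.86 and 5.86 in CX3 and 3.29, 3.97 and 3.16 in DAT, without overlap between groups. It was 2.12-fold lower in DAT than in CTR (log2 fold change -1.09 ± 0.12, adjusted p = 2.21e-06) and 1.69-fold higher in CX3 than in DAT (0.76 ± 0.12, adjusted p = 8.45e-05). The lower level in CX3 than in CTR (-0.33 ± 0.10, adjusted p = 0.0273) did not pass without CTR replicate B (adjusted p = 0.160) or without CX3 replicate A, B or C (0.0629, 0.0695 and 0.0657), nor in the counts of the reverse strand (0.377) or with genes of at least 1 count kept (0.0664).

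**Figure D2:**
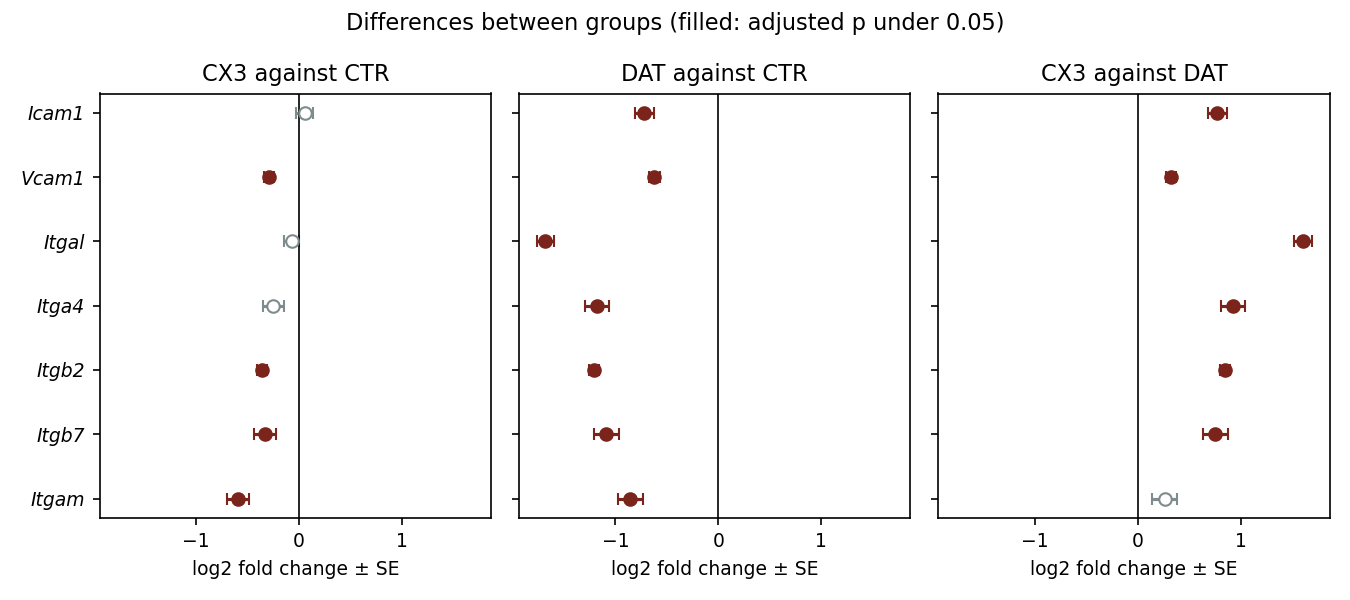
Log2 fold change ± SE (x axis) of the 7 tested genes (y axis) in the 3 comparisons, from the fit over 9 libraries. Filled points have an adjusted p under 0.05. DAT against CTR runs from -1.68 for Itgal to -0.62 for Vcam1, with 7 filled points, while Icam1, Itgal and Itga4 are open in CX3 against CTR and Itgam is open in CX3 against DAT.

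Counted by libraries that do not overlap, 5 of the 7 tested members lay lower in CX3 than in CTR, against 25.4% of the genes tested, and 7 lay lower in DAT than in CTR, against 30.6%. CX3 lay above DAT without overlap for 6 members, against 28.8%.

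The alpha partners of Itgb2 differed in their proportions between groups. As shares of the summed CPM per kilobase of Itgal, Itgam, Itgax and Itgad, Itgam made up 64.9%, 64.5% and 63.7% in CTR, 56.9%, 50.3% and 55.2% in CX3 and 71.7%, 78.8% and 72.4% in DAT. Itgal made up 12.7%, 12.9% and 13.8% in CTR, 14.5%, 18.4% and 15.2% in CX3 and 9.68%, 6.45% and 9.50% in DAT. The share of Itgam was thus highest in DAT and lowest in CX3, and that of Itgal the reverse, with no overlap between the 3 groups. Itgax, the alpha subunit of dendritic cells and activated microglia, held 21.3 ± 0.211% in CTR, 28.4 ± 1.60% in CX3 and 16.0 ± 2.73% in DAT, and Itgad 1.11% to 1.42% on average. The summed alpha partners per Itgb2 were 1.30 ± 0.0619, 1.31 ± 0.0599 and 1.45 ± 0.199. These shares have no test.

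**Figure D3:**
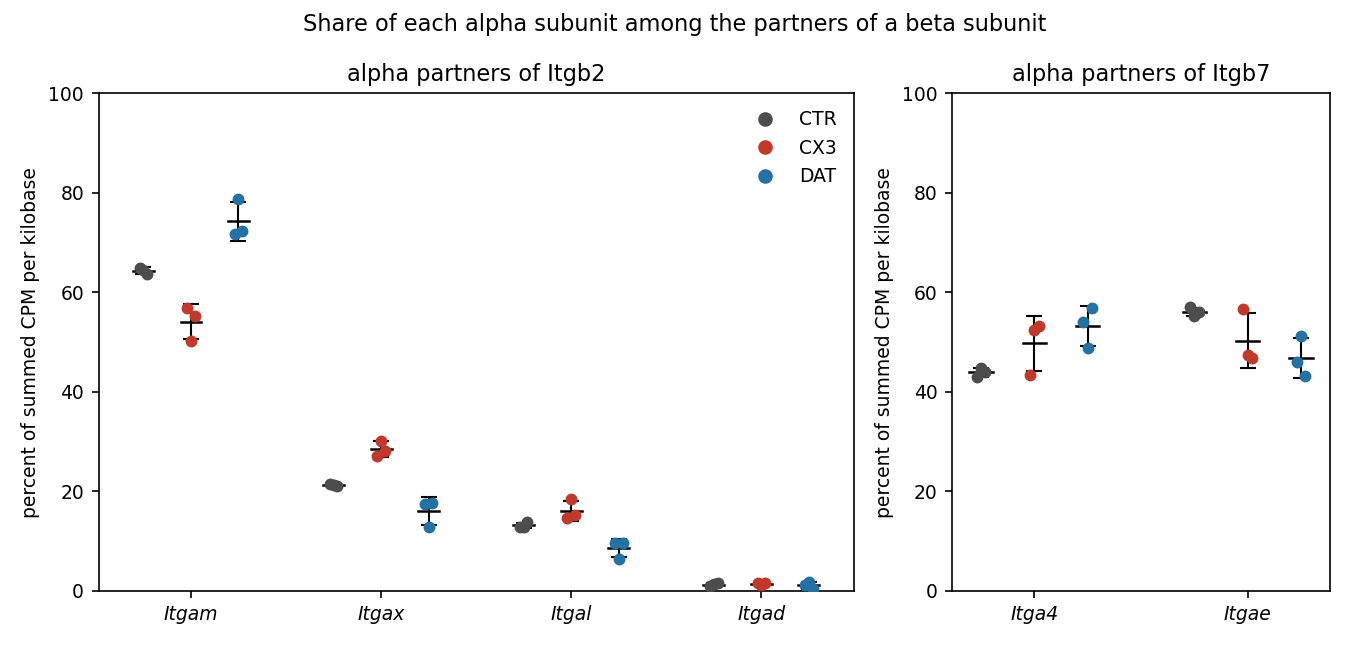
Share of each alpha subunit (x axis) in the summed CPM per kilobase of the alpha partners of Itgb2 (left) and Itgb7 (right), in percent (y axis). Points are libraries and bars the mean ± SD. Itgam holds the largest share among the partners of Itgb2 in every library, from 50.3% to 78.8%, and Itga4 and Itgae lie close to each other among those of Itgb7.

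The partner subunits and ligands outside the 9 genes moved in part with them. Itgax had 20.6 ± 0.771 CPM in CTR, 21.5 ± 0.768 in CX3 and 7.39 ± 0.304 in DAT, with a log2 fold change of -1.48 for DAT against CTR (adjusted p = 3.53e-10) and 0.06 for CX3 against CTR (adjusted p = 0.462). Itgae, which pairs with Itgb7 in tissue-resident T cells, was lower in both, by -0.59 in CX3 (adjusted p = 8.83e-04) and by -1.73 in DAT (adjusted p = 4.24e-08). Among the partners of Itgb7, Itga4 made up 43.9 ± 0.867% in CTR, 49.7 ± 5.49% in CX3 and 53.2 ± 4.02% in DAT, the rest being Itgae. These last shares were 50.1%, 58.5% and 63.9% in the counts of the reverse strand. The exon lengths used there still left out bases shared with a gene on either strand. Strand counted and length used thus cannot be told apart. Itgb1, the broadly expressed beta subunit, had 168 ± 2.05, 161 ± 2.50 and 139 ± 3.66 CPM, with -0.06 for CX3 against CTR (adjusted p = 0.309) and -0.27 for DAT against CTR (adjusted p = 5.70e-05).

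Itgad, a further partner of Itgb2, had 0.891 ± 0.261, 0.818 ± 0.183 and 0.414 ± 0.315 CPM in CTR, CX3 and DAT and was called lower in DAT (adjusted p = 0.0269), with libraries that overlapped. Madcam1, the mucosal ligand of Itga4 with Itgb7, had 41 counts in CTR, 48 in CX3 and 22 in DAT over 3 libraries each, and the groups overlapped. Icam2, a constitutive endothelial ligand of Itgal, had 4.70 ± 0.405, 4.199 ± 0.427 and 3.89 ± 0.257 CPM and was called in no comparison (adjusted p = 0.307, 0.0562 and 0.410). Selplg, the leukocyte ligand of Selp, had 73.5 ± 0.166, 51.4 ± 1.43 and 44.8 ± 1.83 CPM and was lower in CX3 (log2 fold change -0.52, adjusted p = 1.59e-06) and in DAT (-0.72, adjusted p = 1.30e-08).

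Leukocyte markers differed between the groups as well. Ptprc, the pan-leukocyte surface phosphatase, had 64.5 ± 1.38 CPM in CTR, 55.9 ± 2.63 in CX3 and 18.0 ± 2.12 in DAT. The 4 pan-leukocyte markers summed to 198 to 204 CPM in CTR, 176 to 191 in CX3 and 106 to 115 in DAT, with 2 of 4 lower in CX3 than in CTR and 4 of 4 lower in DAT. Of 10 T cell markers, 5 were lower in CX3 and 10 in DAT, and they summed to 82.0 to 85.2, 67.3 to 72.4 and 22.4 to 25.9 CPM. The 6 markers of B and plasma cells were lower in both, with sums of 304 to 323, 73.2 to 78.0 and 10.7 to 14.1 CPM. Of 5 monocyte markers, 2 were higher and 2 lower in CX3 and 5 lower in DAT, with sums of 92.5 to 95.6, 56.2 to 61.8 and 32.2 to 35.3 CPM. Microglia markers summed to 740 to 749 CPM in CTR, 506 to 519 in CX3 and 522 to 536 in DAT, with 5 of 8 lower in CX3, and 6 lower and 1 higher in DAT. In these 5 lists, 0 markers were at 0 counts in every library, and their part in the differences of the members was not tested.

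Other cells that can carry a member were read from markers too. Of 3 tested NK cell markers, 0 were called in CX3 and 2 were lower in DAT than in CTR. Of 3 tested neutrophil markers, 1 was higher and 2 lower in CX3 and 2 lower in DAT, with a sum of at most 2.88 CPM in any library and Ly6g at 3 counts or fewer throughout. Of 5 dendritic cell markers, 2 were higher and 1 lower in CX3 and 2 lower in DAT. Perivascular macrophage markers were higher for 2 and lower for 1 of 5 in CX3 and higher for 4 in DAT, and mast cell markers higher for 3 and 2 of 3. Platelet markers, of cells that store Selp, were lower for 1 of 3 tested in each, with Gp1bb at 3 counts or fewer throughout. Outside the immune system, choroid plexus markers were higher for 5 of 6 in both groups, and erythroid markers lower for 5 of 5 in CX3 and 3 in DAT. Pericyte markers were higher for 2 and lower for 1 of 6 in CX3 and higher for 4 and lower for 1 in DAT, and meningeal fibroblast markers lower for 3 of 5 in CX3 and higher for 3 in DAT. Dopaminergic neuron markers were higher for 5 of 6 in CX3, and higher for 1 and lower for 3 in DAT. Oligodendrocyte markers were higher for 2 and lower for 1 of 5 in CX3 and higher for 2 and lower for 3 in DAT.

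Relative to Ptprc, the integrin subunits differed among themselves. Per kilobase, Itgal per Ptprc was 0.699, 0.786 and 0.769 in CTR, 0.827, 0.833 and 0.813 in CX3 and 0.872, 0.855 and 0.778 in DAT. DAT thus overlapped both other groups for Itgal, the member with the largest difference in CPM. Itgb2 per Ptprc was 4.41 ± 0.0481 in CTR, 3.96 ± 0.275 in CX3 and 6.91 ± 0.912 in DAT, and Itga4 per Ptprc 0.354 ± 0.0113, 0.342 ± 0.0310 and 0.550 ± 0.0721. For Itgam the ratio was 3.69 ± 0.217, 2.82 ± 0.490 and 7.61 ± 2.47, and for Itgb7 0.749 ± 0.0978, 0.687 ± 0.0229 and 1.30 ± 0.325. Each DAT library was above each library of the other groups for these 4 subunits. The 4 pan-leukocyte markers did not fall alike in DAT against CTR, with log2 fold changes from -1.84 to -0.18. Ptprc had 64.5 CPM in CTR and 18.0 in DAT, Arhgap30 20.3 and 8.06, Cd53 38.9 and 16.7 and Laptm5 78.1 and 68.7. The ratios thus depend on the marker taken as the denominator, and ratios to the other pan-leukocyte markers were not computed. Per T cell gene Cd3e, Itgal was 2.21 ± 0.134 in CTR, 2.71 ± 0.401 in CX3 and 2.69 ± 0.751 in DAT. These ratios have no test.

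**Figure D4:**
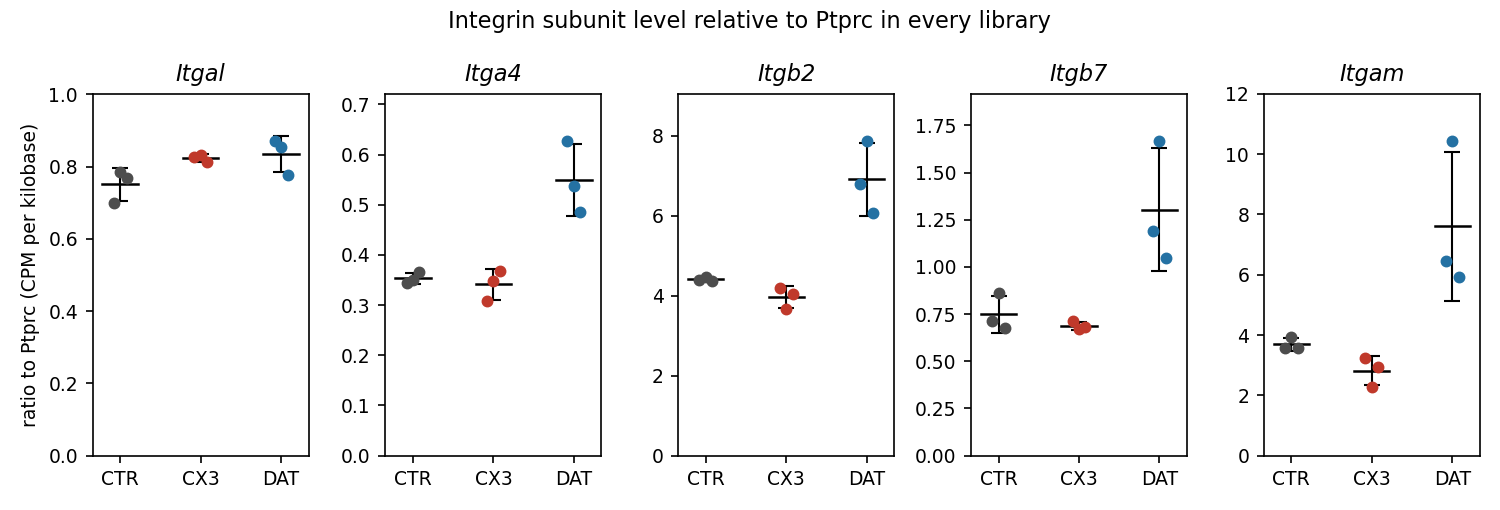
Ratio of 5 integrin subunits to Ptprc, both in CPM per kilobase (y axis, linear, from 0), in the 3 libraries of each group (x axis). Points are libraries and bars the mean ± SD. Itgal stays between 0.699 and 0.872 in the 9 libraries, while the DAT points of the other 4 subunits lie above those of CTR and CX3.

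The wider pathway was read from 5 lists, beside 32% of all genes tested called higher and 27.9% lower in DAT than in CTR, and 14% and 16.5% in CX3. Of 21 tested genes of the endothelial adhesion and junction list outside the 9, 14 were higher and 3 lower in DAT than in CTR. Most thus went in the opposite direction to Icam1 and Vcam1, and 5 were higher and 4 lower in CX3. The list also holds genes of other cells, such as Icam5, so its counts do not describe endothelium alone. Vwf, the platelet-binding factor of endothelium, had 25.0 ± 0.740 CPM in CTR, 20.5 ± 0.462 in CX3 and 88.0 ± 9.88 in DAT, with a log2 fold change of 1.82 for DAT against CTR (adjusted p = 8.27e-11). The amine oxidase gene Aoc3, also called vascular adhesion protein, was higher in CX3 (1.14, adjusted p = 0.00291) and in DAT (1.67, adjusted p = 3.65e-05). Cdh5, the cadherin of endothelial junctions, was lower in CX3 than in DAT (-1.28, adjusted p = 6.53e-09). So was Icam5, an adhesion molecule of neurons (-1.66, adjusted p = 7.16e-08). Cdh5 had 13.2 ± 0.919 CPM in CTR, 12.8 ± 0.477 in CX3 and 30.9 ± 3.18 in DAT. Icam5 had 2.46 ± 0.290, 2.24 ± 0.305 and 7.16 ± 0.427 CPM in the same order. Neither gene was called in CX3 against CTR (adjusted p = 0.739 and 0.515), and both were highest in DAT. Jam3 and Jam2, junctional adhesion molecules, were lower in DAT than in CTR by -0.60 (adjusted p = 1.92e-05) and -0.28 (adjusted p = 9.98e-05).

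Of 20 further integrin subunits tested, 7 were higher and 7 lower in DAT than in CTR, and 3 were higher and 4 lower in CX3. These shares (35% and 35% in DAT, 15% and 20% in CX3) lay near those of all genes tested. The higher ones in DAT were led by Itga3 (log2 fold change 1.06, adjusted p = 2.51e-09), Itga11 (0.91, adjusted p = 2.16e-04) and Itgb3 (0.74, adjusted p = 2.98e-05), which bind laminin, collagen and vitronectin. Those lower in CX3 were led by Itgae, Itgb5 (-0.56, adjusted p = 1.01e-06) and Itgb8 (-0.40, adjusted p = 5.45e-05). The platelet subunit Itga2b was called in no comparison.

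Of 14 selectin ligand genes, 7 were lower and 3 higher in DAT than in CTR, and 5 were lower and 1 higher in CX3. Spn, a sialomucin of T cells, fell from 7.23 ± 0.729 CPM in CTR to 2.05 ± 0.10 in DAT (log2 fold change -1.82, adjusted p = 1.45e-08) and had 6.87 ± 0.382 in CX3. Cd44, a ligand of Sele, was lower in both, by -0.49 in CX3 (adjusted p = 1.10e-04) and by -0.74 in DAT (adjusted p = 7.13e-07). Glg1, a Golgi glycoprotein that binds Sele and is expressed in many cell types, was higher in DAT (0.95, adjusted p = 6.53e-10) and lower in CX3 (-0.29, adjusted p = 2.90e-04).

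Of 19 integrin activation genes, 13 were lower and 4 higher in DAT than in CTR, and 8 were lower and 2 higher in CX3. Cytip, which binds the cytohesin Cyth1 in leukocytes, had 8.15 ± 0.289, 7.12 ± 0.176 and 1.71 ± 0.299 CPM in CTR, CX3 and DAT (-2.22 for DAT against CTR, adjusted p = 2.09e-09). Fyb, an adaptor between the T cell receptor and integrins, was lower in CX3 (-0.48, adjusted p = 2.16e-04) and in DAT (-1.60, adjusted p = 1.35e-09), as was Dock2, a leukocyte activator of Rac (-0.65, adjusted p = 1.68e-05, and -1.16, adjusted p = 2.04e-08). Tln1, the talin that opens integrins in many cell types, was lower in CX3 than in CTR (-0.51, adjusted p = 1.83e-05) and than in DAT (-0.69, adjusted p = 1.97e-07). Among the higher genes in DAT were Rapgef1 (0.67, adjusted p = 2.29e-06) and Rassf5 (0.50, adjusted p = 1.72e-05), which act around the small GTPase Rap1.

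Of 11 receptors and adaptors through which cytokines induce Icam1 and Vcam1, 6 were lower and 0 higher in DAT than in CTR, and 4 were lower and 1 higher in CX3. Ifngr1, of the interferon gamma receptor, was lower in CX3 (-0.54, adjusted p = 3.00e-06) and in DAT (-0.68, adjusted p = 7.90e-08), and so was the tumour necrosis factor receptor Tnfrsf1b (-0.32, adjusted p = 6.17e-04, and -0.65, adjusted p = 4.37e-07). Tnfrsf1a, the other receptor of that cytokine, was lower in CX3 (-0.29, adjusted p = 5.40e-04) and gave -0.10 in DAT (adjusted p = 0.101). Ripk1, a kinase of the same pathway, was lower in DAT (-0.73, adjusted p = 9.19e-07).

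**Figure D5:**
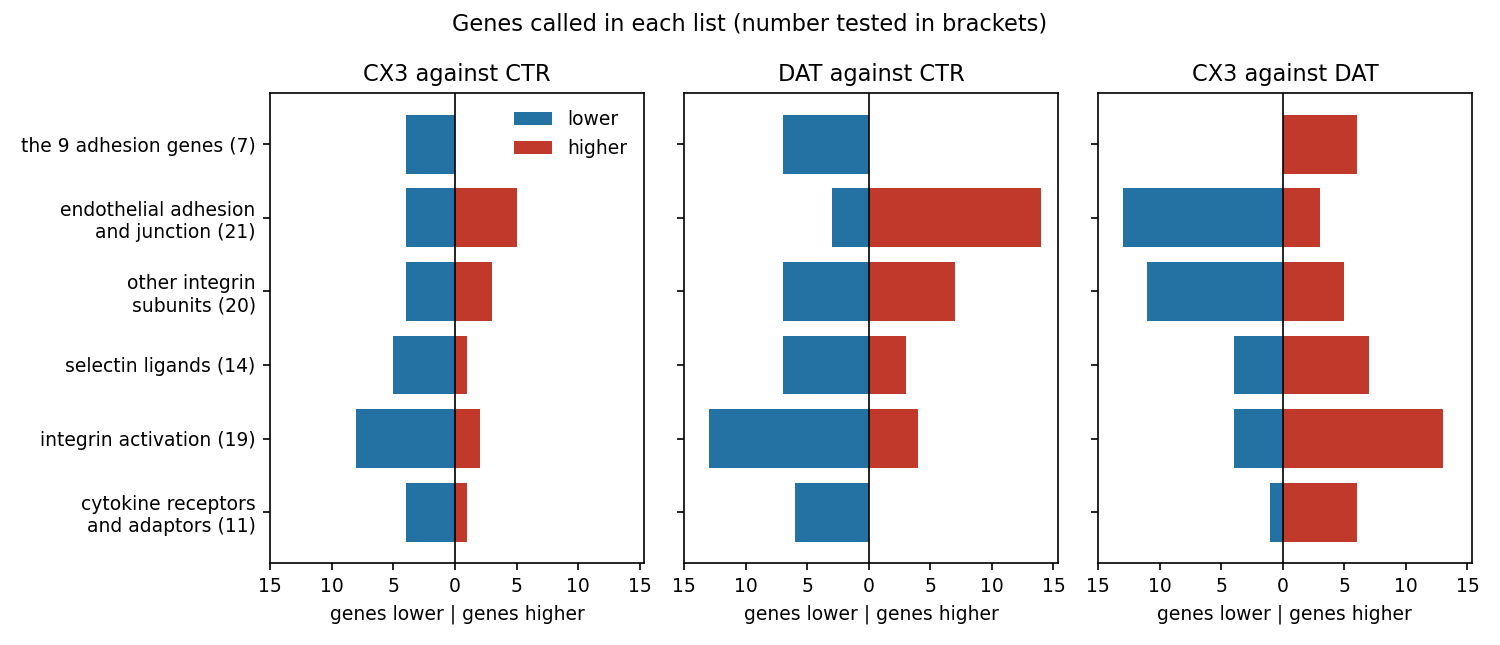
Number of genes called lower (bars to the left) and higher (bars to the right) at an adjusted p under 0.05 (x axis) in the 9 adhesion genes and the 5 lists (y axis, number tested in brackets), for the 3 comparisons. In DAT against CTR, 14 genes of the endothelial adhesion and junction list, which is not of endothelium alone, are higher, while 7 adhesion genes and 13 integrin activation genes are lower.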

How the data were processed

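RNA of dissected nigral tissue was measured in 9 libraries. The authors deposited unnormalized read counts per gene for each library, from 76-base reads (stranded mRNA kit, 1 μg of RNA) trimmed with Trimmomatic and aligned with STAR. The study's methods name featureCounts, while the deposited files are laid out like STAR's gene counts. Per the labels the build is mm10, and the identifiers belong to GENCODE M21, from which symbols were taken. Forward and reverse strands held near-equal counts (49.8% to 49.9% reverse), so counts of both together were used, and overlapping opposite-strand genes cannot be told apart. Unmapped, multimapping, unassigned and ambiguous reads (30.5% to 35.9%) were left out of library sizes.

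Groups followed the sample titles. Counts were filtered (filterByExpr), scaled by TMM and tested over 20892 genes with edgeR 4.0.16 in R 4.3.3, all 9 libraries in one quasi-likelihood fit with Benjamini-Hochberg adjustment, tested on simulated data. CPM are on the TMM scale, and ratios use CPM per kilobase of unshared exon. Alternatives were DESeq2 1.42.0, other scalings, filters, strands, a replicate block and leaving out each library. Tables and plots were made in Python 3.11.15 (pandas 2.3.3, numpy 2.4.6, scipy 1.17.1, matplotlib 3.10.9). The 9 genes, the 5 pathway lists and 19 marker lists were chosen with earlier results of these data known. Genes named from a pathway list were the 3 with the largest change in each direction and comparison among those called without overlap between libraries, of which a selection is printed, besides the fixed partners Itgax, Itgad, Itgae, Itgb1, Madcam1, Icam2 and Selplg. A further fixed gene is not reported here and is left out of the list counts. Cd44, Cd3e, Cldn5 and other defining genes were named whatever their values.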

Additional observations from a re-analysis of the deposited data

How the results depend on the processing

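Over the alternatives, the 7 tested members gave 126 values of the log2 fold change in each comparison, and none reversed a called direction. In DAT against CTR, 126 of 126 kept their call. In CX3 against CTR, 116 kept it, 6 lost it (Itgb7) and 4 gained it (Itga4). In CX3 against DAT, 121 kept it and 5 gained it (Itgam). With library size alone in place of TMM, the median of all genes moved by -0.15 in DAT against CTR and by 0.19 in CX3 against DAT, the genes called higher in CX3 against DAT numbered 8916 against 5767, and the share of higher among called genes was 58.9%, 37.8% and 66.7% in CX3 against CTR, DAT against CTR and CX3 against DAT, against 45.9%, 53.4% and 46.8%. The members' directions did not change with it. Leaving out 1 library gave 3 to 5 members lower in CX3 against CTR, 7 lower in DAT against CTR and 6 to 7 higher in CX3 against DAT, with 2014 to 4209 of all genes higher and 2624 to 4379 lower in CX3 against CTR. Of all genes called in these refits, 50.6% to 53.6% were higher in DAT against CTR and 45.5% to 49.5% in CX3 against DAT. These are shares of called genes, and how many of all tested genes were called in those comparisons is not given. With the letter as a replicate block, the members called numbered 4, 7 and 6 as without it, and the letters do not pair the libraries (1 of 9 correlations of same-letter deviations above 0.1, from -0.292 to 0.109). Of 135 ratio values, 23 moved by more than 1 SD, in the counts of a single strand, for which the exon lengths were kept as for both strands. With a filter of 1 count, Selp and Sele had adjusted p of 0.718 and 0.751 in CX3 against CTR. Depth limits both selectins and Madcam1.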
